A study of Mus musculus with 2 samples.

Results

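Homeobox genes encode transcription factors that contact DNA through the homeodomain, and 42 of them were read in mouse hippocampus, out of 55536 annotated genes. The members were taken from a fixed list of gene symbols, matched exactly in the transcript tables and linked to the gene tables by identifier, and all 42 were found, each with a single identifier. The matching used no measured level, although the list was drawn up with earlier results of these data known. The samples were total RNA libraries, reduced in ribosomal RNA, from female B6CASTF1/J mice at 25 days of age, and the tissue is labelled as a layer of hippocampus. B6CASTF1/J is an F1 hybrid of a laboratory strain and a wild-derived one, and the labels give no treatment and no second genotype. There is 1 group with 2 libraries, called replicates 1 and 2, each made with ERCC spike-ins from 300 ng of RNA. The labels give each replicate its own biosample and a different number after the word female, which reads as separate animals, but the same donor entry for both. Nothing states outright that they were separate animals, so the spread between them may be partly technical.

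The homeodomain is a fold of helices, of which the third helix lies in the major groove of DNA and reads the bases there. In the embryo these factors divide the neural tube into regions, so that a forebrain structure uses one set and the hindbrain and spinal cord use the Hox clusters. In the postnatal brain many of the same genes stay active in particular classes of neurons and glia, where they hold the identity of those cells. Several members are relatives in which zinc fingers or other domains stand beside the homeodomain, or in which the homeodomain has diverged.

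The gene tables held 34919989 and 41206890 expected counts, and the members took 0.170% and 0.152% of the gene counts. All 6 markers fixed for hippocampal neurons were present, with a summed level of 410 TPM in replicate 1 and 356 in replicate 2. Prox1, itself a homeobox gene and the marker of dentate granule cells, was at 45.9 and 37.9 TPM, and Wfs1, a marker of CA1 pyramidal neurons, at 89.6 and 78.0. TPM is a share of all transcripts that is scaled for transcript length, so levels of different genes can be set side by side. Coordinates are on mm10.

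The homeodomain itself could be followed in the coding sequence of the members. The signature sought was the run of codons in the third helix that reads tryptophan, phenylalanine, any codon, asparagine, any codon, arginine. An annotated transcript of 33 of the 42 members carried it, against 224 of 21911 coding genes, or 1.02%. Stretches of 60 coding bases around it are printed for members of different families, with the 18 bases of the signature in capitals, to show what the families share and where they part.
Emx2: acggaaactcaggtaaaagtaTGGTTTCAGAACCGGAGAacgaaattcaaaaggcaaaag
Lhx2: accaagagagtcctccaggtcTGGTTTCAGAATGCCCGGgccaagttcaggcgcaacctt
Lhx1: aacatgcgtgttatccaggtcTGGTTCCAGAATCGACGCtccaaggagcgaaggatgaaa
Dlx1: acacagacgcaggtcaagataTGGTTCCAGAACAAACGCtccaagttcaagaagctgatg
Otx1: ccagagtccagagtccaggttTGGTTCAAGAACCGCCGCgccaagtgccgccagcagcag
Pax6: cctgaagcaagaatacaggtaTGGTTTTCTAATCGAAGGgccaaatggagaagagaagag
Meis2: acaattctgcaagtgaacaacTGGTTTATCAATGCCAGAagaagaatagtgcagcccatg
Pbx2: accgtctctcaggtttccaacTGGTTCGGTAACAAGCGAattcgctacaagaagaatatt
Cux1: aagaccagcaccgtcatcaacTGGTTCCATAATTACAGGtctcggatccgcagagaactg
Pou3f3: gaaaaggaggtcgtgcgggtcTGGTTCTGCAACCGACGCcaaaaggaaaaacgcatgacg

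These are spliced coding sequences read on the strand of each gene from the GENCODE M21 transcripts. The search itself required all capitals to begin with the tryptophan codon TGG, followed by a phenylalanine codon. The codon in the middle of the signature, bases 7 to 9 of the capitals, differed between families. The residue at this place is known to help set which bases a homeodomain prefers. It was CAG in 15 members, among them the Emx and Dlx genes, Lhx1, Lhx2 and Lhx5, and AAG in Otx1, Otx2 and Six3. Lhx9 had CAA in place of the CAG of the other Lhx members, and both codons encode glutamine. Meis genes had ATC or ATT, Pbx genes GGC or GGT, Cux genes CAC or CAT and POU genes TGC or TGT, while Pax6 had TCT. Within each of the Meis, Pbx, Cux and POU groups these codons encode the same residue. Lhx2, which was well expressed, and Lhx1, which was nearly unread, thus shared the codon CAG.

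Splice positions inside the stretch were shared within several groups of relatives, but also between groups, and Nkx2-1 and Nkx6-2 differed. In 12 members the 60 bases lay in a single exon: all 6 POU genes, the 3 Zfhx genes, Six3, Gbx2 and Nkx2-1. Pou3f1, Pou3f2, Pou3f3 and Pou3f4 have a single annotated exon each, so no junction could cross their stretches. An exon junction crossed the 60 bases in the other 21. The junction lay 9 bases before the first capital in 8 members, namely Emx1, Emx2, Dlx1, Dlx2, Dlx5, Dlx6, Pbx2 and Pbx3. It lay 3 bases before the first capital in another 8, the Lhx, Otx, Pax6 and Nkx6-2 genes. In the 3 Meis genes 2 capitals came before the junction, and in Cux1 and Cux2 17 of them did. Zfhx2, Zfhx3 and Zfhx4 each carried 3 signatures in the same protein. In Zfhx2 they read as follows in order along the transcript.
Zfhx2 site 1: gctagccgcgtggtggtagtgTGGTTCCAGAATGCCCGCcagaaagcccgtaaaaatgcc
Zfhx2 site 2: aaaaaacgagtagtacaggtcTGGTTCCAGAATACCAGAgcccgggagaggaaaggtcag
Zfhx2 site 3: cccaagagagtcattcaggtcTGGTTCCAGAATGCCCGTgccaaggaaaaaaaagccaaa
The 9 members without the signature were Satb1, Tshz1, Tshz2, Tshz3, Zeb1, Zeb2, Adnp, Homez and Hopx, whose homeodomains are known to be diverged. In the wider lists of homeobox genes 153 of 172 had it.

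Most members were active in this tissue. Of the 42, 35 stood at 1 TPM or more in both libraries, which is called expressed here, and 1, Lhx5, stood under 0.1 TPM in both. Among 22015 nuclear protein-coding genes 57.6% were expressed by the same rule and 28.4% were under 0.1 TPM in both libraries. The members together came to 694 TPM in replicate 1 and 596 in replicate 2, a mean of 645 ± 69.3 (SD, n = 2). Their levels ran from 0.03 TPM for Lhx5 in replicate 2 to 189 for Zeb2 in replicate 1, and the 5 highest members held 50.2% of the sum. In bulk tissue a low level can mean few cells of a type or little RNA per cell, and these cannot be told apart.

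**Figure D1:**
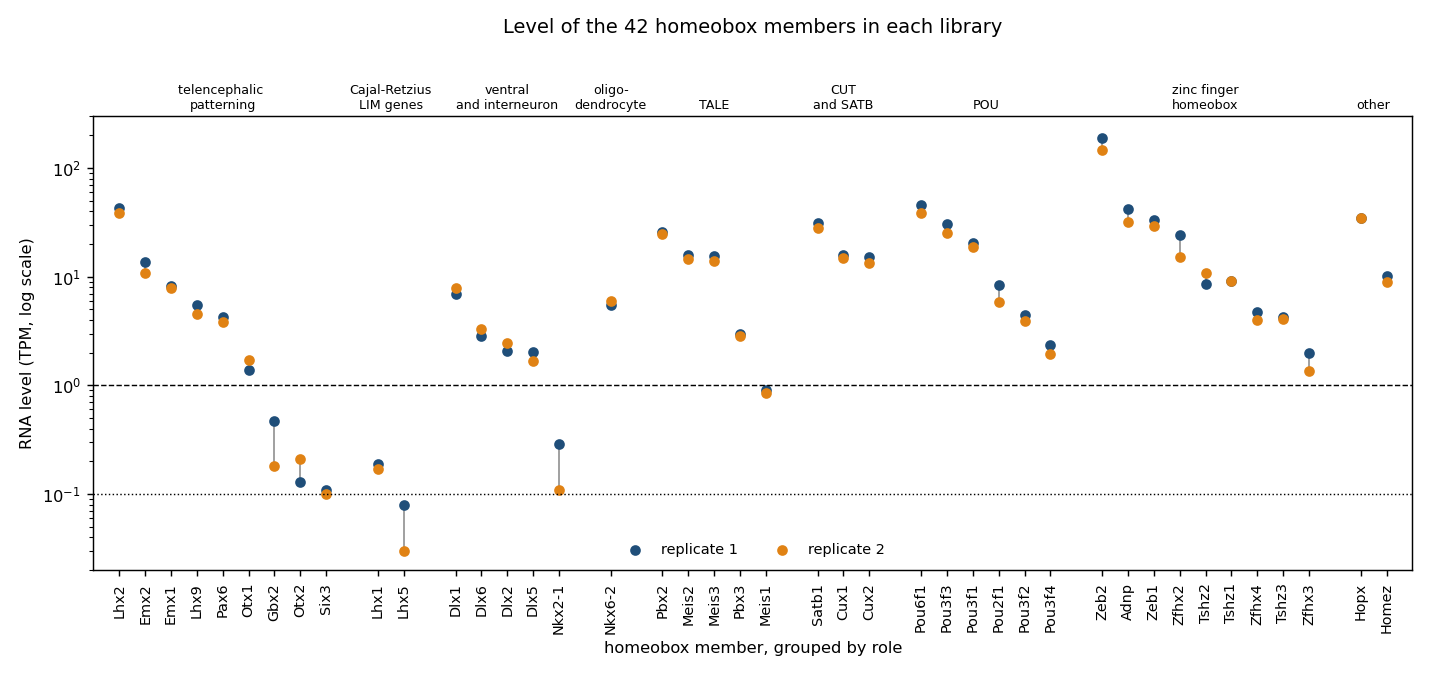
RNA level in TPM on a log axis for each of the 42 members, grouped by role, with 1 point for each library joined by a line. The dashed line is 1 TPM and the dotted line 0.1 TPM. The points of both libraries lie above 1 TPM for 35 members, and Lhx5 is the only member with both points under 0.1 TPM.

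Of the genes that pattern the telencephalon, 6 of 9 were expressed. Lhx2 (ENSMUSG00000000247.11, chromosome 2, 38339281 to 38369733), a LIM-homeodomain factor needed for the hippocampus to form, had 42.8 TPM in replicate 1 against 38.99 in replicate 2. Emx2, required for growth of the hippocampus, was at 13.8 and 10.8 TPM, and its relative Emx1, a marker of the dorsal telencephalic lineage, at 8.28 and 7.91. Lhx9, the closest relative of Lhx2, was at 5.52 and 4.51 TPM. Lhx2 was the highest of the group in both libraries, with no overlap with Emx2, and Emx2 stood above Emx1 in both.

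Pax6, known for the eye and for neural progenitors and kept in some adult astrocytes and interneurons, was at 4.22 and 3.80 TPM. Otx1, a forebrain factor of deep cortical neurons, was at 1.38 and 1.72 TPM. Both lay below Emx1 in both libraries, and Otx1 was the lowest member of this group above 1 TPM. In a second quantification deposited with the data Pax6 stood above Emx1, at 13.0 and 13.8 TPM against 12.9 and 12.4.

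The other 3 patterning genes mark neighbouring regions or earlier stages, and each gave a handful of counts. Six3, a factor of the most anterior forebrain and the eye, had 6 counts in replicate 1 and 7 in replicate 2, or 0.11 and 0.10 TPM. Otx2, a factor of the midbrain that also marks the choroid plexus, had 6 and 11 counts, or 0.13 and 0.21 TPM. Gbx2, a factor of the anterior hindbrain and of thalamic neurons, had 21 counts (95% Poisson interval 13.0 to 32.1) and 7 counts (2.81 to 14.4), or 0.47 and 0.18 TPM. These intervals cover counting error only. Otx2 was higher in replicate 2 and Gbx2 in replicate 1, and with so few counts neither was held to a fold rule.

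Markers of the neighbouring tissues were read beside both genes. Of 7 choroid plexus markers 3 were expressed, and their summed level was 28.8 TPM in replicate 1 and 61.4 in replicate 2. Ttr, the abundant secreted protein of that tissue, was at 23.5 and 55.1 TPM, and without it the other 6 markers summed to 5.32 and 6.32 TPM. Folr1 had 0 and 14 counts, while Kl, the only other one of the 7 with 200 counts, was at 3.43 and 3.38 TPM. All 6 thalamic markers were expressed, with a sum of 102 TPM in replicate 1 and 80.0 in replicate 2. The highest of the 6, not named here, had a mean of 45.9 TPM, of a mean sum of 91.1. Prkcd, a kinase gene of thalamic relay neurons, was at 17.5 and 11.1 TPM and Tcf7l2, a Wnt effector, at 7.95 and 4.93. The part of these tissues in the levels of Otx2 and Gbx2 was not tested.

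Lhx1 and Lhx5, LIM-homeodomain factors that mark Cajal-Retzius cells, the early neurons of the outermost layer, were close to unread. Lhx1 had 10 and 12 counts, or 0.19 and 0.17 TPM. Lhx5 (ENSMUSG00000029595.9, chromosome 5, 120431699 to 120441223) had 5 counts (1.62 to 11.7) and 2 counts (0.242 to 7.22), or 0.08 and 0.03 TPM. Both genes were above a count of 0 in both libraries. Of 4 other markers of these cells 3 were expressed, with a sum of 50.8 and 51.9 TPM, and the remaining one, Trp73, was at 1.46 and 0.96 TPM. Reln, the secreted protein best known from Cajal-Retzius cells but also made by interneurons, was at 21.03 and 19.1 TPM.

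The promoter windows of the LIM members did not separate Lhx2 from Lhx1. Both are printed, as the LIM members of highest and lowest level that have a window, with every CpG dinucleotide in capitals. Each window is from RefSeq on GRCm38.p6 and runs from 250 bases before to 50 after an annotated start, on the strand of the gene. The Lhx2 window is chr2:38351058-38351357 on the plus strand, and the Lhx1 window is chr11:84525485-84525784 on the minus strand.
Lhx2: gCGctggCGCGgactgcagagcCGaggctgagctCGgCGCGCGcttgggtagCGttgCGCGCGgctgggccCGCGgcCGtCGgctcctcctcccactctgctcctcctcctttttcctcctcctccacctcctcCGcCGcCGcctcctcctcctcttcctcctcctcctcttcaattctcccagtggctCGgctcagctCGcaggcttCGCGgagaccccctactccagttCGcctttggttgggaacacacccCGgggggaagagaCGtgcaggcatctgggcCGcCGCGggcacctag
Lhx1: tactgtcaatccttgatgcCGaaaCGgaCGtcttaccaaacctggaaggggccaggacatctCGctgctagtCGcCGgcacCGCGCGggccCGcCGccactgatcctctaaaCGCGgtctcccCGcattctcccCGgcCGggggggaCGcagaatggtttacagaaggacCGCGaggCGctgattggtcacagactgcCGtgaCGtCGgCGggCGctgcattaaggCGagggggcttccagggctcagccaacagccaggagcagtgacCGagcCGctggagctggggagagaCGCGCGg

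The Lhx2 window holds 29 CpG and the Lhx1 window 31. The Lhx2 window printed is the one nearest the start of its leading transcript, but it lies wholly downstream of that start. The start it is built on is 549 bases from the leading start, against 1 base for Lhx1. The first listed window of Lhx2, used for the group medians and the plot, holds 34 CpG. This is on the scale of active genes for both: expressed coding genes had a median of 21 CpG in 300 bases. Coding genes under 0.1 TPM had a median of 2, and those in neither class, where Lhx1 falls, a median of 8. A window was found for 33 members, and the first listed for each gene was used to compare groups. The nearest window was within 600 bases of the start of the leading transcript in 24 of them. The 27 expressed members with a window had a median of 23 CpG and the 6 others a median of 14.5. The 76 other homeobox genes under 0.1 TPM that had a window had a median of 16, well above the 2 of all coding genes at such levels. Windows poor in CpG occurred among expressed members too. Tshz2 had 2 CpG at about 10 TPM, and Lhx9 had 6. Some members have several windows that differ widely: from 3 to 45 CpG in Satb1 and from 4 to 48 in Cux2. A window is a stretch of sequence near an annotated start, not a measured promoter.

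**Figure D2:**
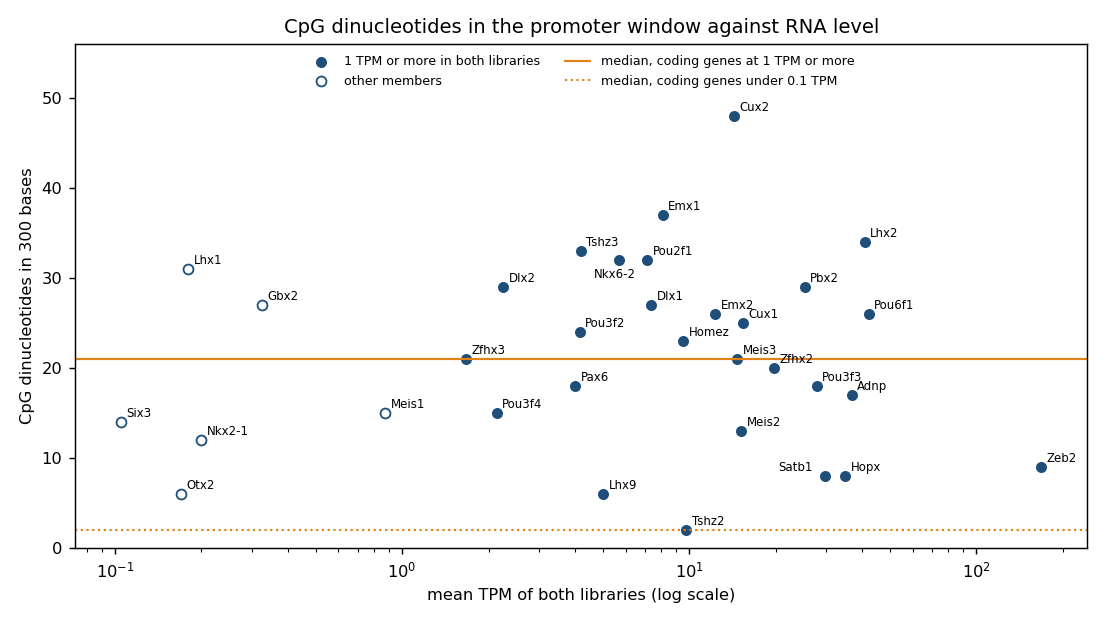
Number of CpG dinucleotides in the first listed RefSeq window of 300 bases against mean TPM on a log axis, for the 33 members with a window. Filled points are members at 1 TPM or more in both libraries, open points the others, and lines give the medians of coding genes at 1 TPM or more (21) and under 0.1 TPM (2). The open points of Lhx1 and Gbx2 lie as high as those of expressed members.

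The Dlx genes, which specify GABA neurons from the ventral telencephalon, were all low and all expressed. Dlx1, kept in many interneurons after they have migrated, was at 6.87 and 7.85 TPM. Its bigene neighbour Dlx2 was at 2.06 and 2.43 TPM. Dlx5 and Dlx6, the second linked pair, were at 2.01 and 1.69 TPM and at 2.85 and 3.29 TPM. Dlx1 was the highest of the 4 in both libraries, and the ranges of Dlx2 and Dlx5 did not overlap.

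Nkx2-1, which specifies the medial part of the same ventral zone and is shut off in most cortical and hippocampal interneurons, had 16 and 8 counts, or 0.29 and 0.11 TPM. The Dlx genes thus stood above 1 TPM where Nkx2-1 did not. All 7 interneuron markers were expressed, with a sum of 419 and 443 TPM. Of the 6 striatal markers, which mark other Dlx-lineage neurons, 5 were expressed, with a sum of 26.8 and 31.9 TPM. The part of each cell class in the Dlx levels was not tested.

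Noncoding RNA genes at the Dlx loci were read beside them. Dlx1as, antisense to Dlx1 and sharing 335 exonic bases with it, was at 9.97 and 8.46 TPM, above Dlx1 itself in both libraries. Dlx6os1, a long noncoding RNA of the Dlx5 and Dlx6 locus whose symbol has 2 identifiers, was, for ENSMUSG00000090063.6, at 9.83 and 7.29 TPM. Whether the counting used strand is not given in the sources used here, so reads in the overlap may belong to either gene.

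Nkx6-2, a factor of maturing oligodendrocytes, was at 5.46 and 5.95 TPM. All 5 oligodendrocyte markers were expressed, with a sum of 2151 and 2182 TPM. The marker sum and Nkx6-2 were slightly higher in replicate 2. Nkx6-2 shares 246 exonic bases with Inpp5a on the opposite strand, which was at 18.4 and 16.7 TPM.

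The TALE genes carry extra residues in the homeodomain and act as partners of other homeodomain factors. Pbx2 was at 25.6 and 25.0 TPM. Meis2, found in several interneuron and projection neuron classes, was at 15.7 and 14.6, and Meis3 at 15.5 and 14.0. Pbx3 was at 2.99 and 2.84 TPM. Meis1 was the only member of this family under the threshold, at 0.90 and 0.85 TPM with 61.2 and 70.0 counts. The ranges of Meis2 and Meis3 overlapped, and both lay below Pbx2 in each library.

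The CUT and SATB genes are known from the layers of the cortex. Satb1, a chromatin organizer that also serves interneurons, was at 31.3 and 28.2 TPM. Cux1 and Cux2, markers of upper-layer cortical neurons that shape dendrites, were at 15.95 and 14.9 TPM and at 15.3 and 13.4 TPM. The ranges of Cux1 and Cux2 overlapped, so their order was not resolved, and Satb1 lay above both.

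All 6 POU genes were expressed. Pou6f1, a factor of neurons in the forebrain, was the second highest member by mean level, at 45.7 and 38.85 TPM. In replicate 2 Lhx2, at 38.99 TPM, was above it. The class III genes, first described in neural development and in myelinating cells, followed the order Pou3f3, Pou3f1, Pou3f2 and Pou3f4. Pou3f3 was at 30.5 and 25.1 TPM and Pou3f1 at 20.5 and 18.8. Pou3f2 was at 4.43 and 3.89 TPM and Pou3f4 at 2.34 and 1.93. No neighbours in this order of 4 overlapped. Pou2f1, the broadly expressed octamer-binding factor, was at 8.37 and 5.89 TPM. Pantr1, a noncoding RNA gene next to Pou3f3, was at 69.3 and 62.3 TPM, above Pou3f3 in both libraries.

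The zinc finger homeobox genes held the highest member. Zeb2 (ENSMUSG00000026872.17, chromosome 2, 44983632 to 45117395), a repressor active in migrating interneurons, in the hippocampus and in glia, had 189 TPM in replicate 1 against 148 in replicate 2. It alone made up 26.1% of the summed level of the members. Its relative Zeb1, a repressor best known from epithelial cells and progenitors, was at 33.5 and 29.4 TPM. Adnp, a subunit of the ChAHP chromatin complex with Chd4 and HP1 proteins, was at 41.9 and 31.8. Zeb2 was more than 3 times the next member in both libraries.

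The Tshz genes, teashirt factors with several zinc fingers, stood between 4 and 11 TPM. Tshz2 was at 8.66 and 10.9 TPM, Tshz1 at 9.06 and 9.14 and Tshz3 at 4.28 and 4.10. The range of Tshz1 lay inside that of Tshz2. The Zfhx genes, very large factors with several homeodomains, ran from Zfhx2 at 24.2 and 15.3 TPM through Zfhx4 at 4.39 ± 0.552 (SD, n = 2) to Zfhx3 at 1.97 and 1.37. Homez, a leucine zipper homeodomain protein, was at 10.1 and 8.91 TPM. Hopx, a very small homeodomain protein that does not bind DNA and marks quiescent stem cells and astrocytes, was at 35.0 and 35.1. Hopx had the closest agreement between libraries of the members above 30 TPM.

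In the order of all 42 members, 29 of 41 neighbouring pairs had overlapping ranges over the 2 libraries, so ranks of members near each other are not resolved. The order begins with Zeb2, Pou6f1, Lhx2, Adnp and Hopx, of which the last 4 overlap from neighbour to neighbour. The median level of the expressed members was 9.53 TPM, against 14.98 for all expressed coding genes.

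Homeobox genes outside the members were read in 5 further lists. Of 39 genes of the Hox clusters 38 were under 0.1 TPM in both libraries and 35 had 0 counts in both. The exception was Hoxd1, with 5 and 4 counts, or 0.12 and 0.08 TPM. The 39 together had 6 counts in replicate 1 and 7 in replicate 2. In the list of 46 midbrain, hindbrain and spinal cord genes 36 were under 0.1 TPM and 2 were expressed, Dbx2 at 12.8 ± 0.113 TPM and Nkx2-2 at 3.84 ± 0.339. Of 40 body and germ-line genes 24 were under 0.1 TPM and 3 were expressed: Mkx at 5.27 and 5.06 TPM, Msx1 at 2.56 and 2.16 and Prrx1 at 2.25 and 2.14. None of 19 eye, pituitary and hypothalamus genes was expressed. Of 28 further forebrain and widely expressed genes 18 were, among them Zhx3 at 45.5 ± 2.92 TPM, Prox1 at 41.9 ± 5.62 and Hmbox1 at 40.6 ± 8.06. The median of this forebrain list was 4.95 TPM and that of the members 7.25. The lists were assembled by where the genes are known to act, and with earlier results of these data known, so this is a description.

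**Figure D3:**
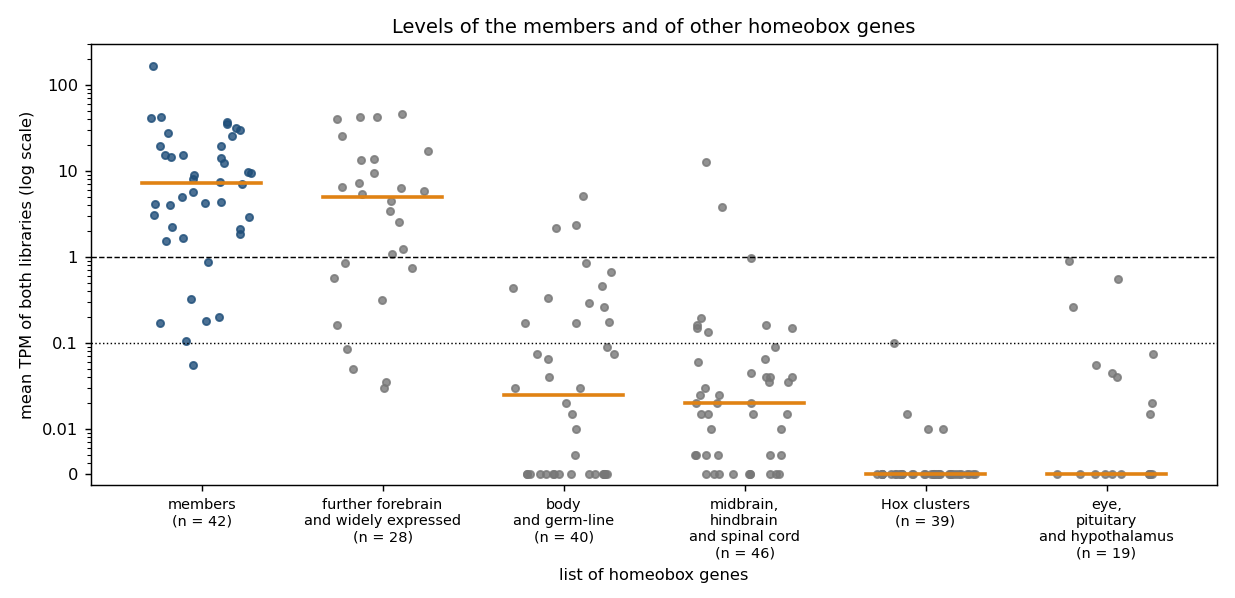
Mean TPM of both libraries on a log axis for each gene of the members and of 5 other lists of homeobox genes, with genes listed at 0 drawn on the bottom tick. Each point is a gene and the thick line is the list's median, with the dashed line at 1 TPM and the dotted line at 0.1 TPM. The members have a median of 7.25 TPM and the Hox clusters a median of 0. Members and lists were chosen with earlier results of these data known.

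Partner genes were present throughout. Ldb1, the adaptor that LIM-homeodomain factors need, was at 44.8 and 43.2 TPM, and Lmo4, a LIM-only protein that competes for it, at 90.7 and 81.7. Ctbp1, the corepressor that Zeb factors recruit, was at 112 and 120 TPM, and Chd4, the remodeller of the ChAHP complex, at 75.7 and 62.3. All 12 partners and corepressors listed and all 17 Polycomb and ChAHP genes listed were expressed. Polycomb complexes hold silent homeobox genes in a repressed state. Ezh1, a methyltransferase of one such complex, was at 25.6 and 23.2 TPM.

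The transcripts behind a gene's level were not always those that encode the homeodomain. Of 26 expressed members with the signature, 6 had under 50% of their TPM, averaged over the libraries, in transcripts that carry it. These were Cux1, Cux2, Lhx9, Dlx1, Pou6f1 and Zfhx4. As a share of counts, only Lhx9 of these was under 50%, at 32.2% and 29.0%. In the second deposited quantification the means of Cux2 (59.2%) and Zfhx4 (50.6%) were over 50% of TPM. Pax6 (25.0%), Meis3 (35.5%), Pbx3 (48.6%) and Pou2f1 (48.3%) had means under it there. The libraries fell on opposite sides of 50% for Cux2 and Zfhx4 in both quantifications, so their side was not resolved. In the main tables Cux2 was at 43.3% and 52.0% and Zfhx4 at 51.4% and 43.5%. In the second quantification Cux2 was at 49.9% and 68.5%, Zfhx4 at 63.2% and 37.9% and Pou2f1 at 52.3% and 44.2%. In Cux1 (ENSMUSG00000029705.17, chromosome 5, 136248135 to 136567490) transcripts with the signature made up 27.0% of the gene's TPM in replicate 1 and 21.3% in replicate 2. The leading transcript, Cux1-211, is 2831 bases long, encodes 676 residues without the signature and held 56.9% and 56.1%. Cux1 is known to give a shorter protein, CASP, that sits in the Golgi membrane and lacks the homeodomain. The full-length Cux1-201, of 12862 bases, held 16.03% and 13.8% of TPM but 785 and 790 of the 1658 and 1813 counts. A share of TPM counts molecules, while a share of counts follows length.

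Lhx9 showed the same kind of split. Lhx9-201, a coding transcript of 4937 bases without the signature, held 50.9% and 58.5% of its TPM, and transcripts with the signature 43.8% and 38.8%. In the second deposited quantification Lhx9-201 held 24.4% and transcripts with the signature 42.2%. So the leader depended on the quantification, while the share with the signature stayed under 50% in both. Lhx2, by contrast, had 86.9% and 93.1% of its TPM in transcripts with the signature, led by Lhx2-201 at 65.4% and 67.7%.

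Transcripts annotated as noncoding took much of the level of several members. Pou6f1 had 41.96% and 44.1% of its TPM in coding transcripts, all with the signature, and a mean of 35.4% in transcripts annotated as retained introns. Dlx1 had 41.9% in Dlx1-201, its only transcript with the signature, in both libraries. In Emx1 the retained-intron transcript Emx1-202 held 35.1% and 30.9%, beside 64.9% and 69.1% for the coding Emx1-201. Total RNA holds unspliced as well as mature RNA.

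Annotation set some shares. The leader of Nkx6-2, Nkx6-2-201, is annotated as a target of nonsense-mediated decay and held 96.6% and 80.4% of the gene's TPM, yet its reading frame carries the signature. The 4 class III POU genes have a single annotated transcript each, so 100% of their level is in it by construction. In Zfhx2 the coding transcript Zfhx2-201, of 10397 bases with 3 signatures, held 71.4% and 72.4%.

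**Figure D4:**
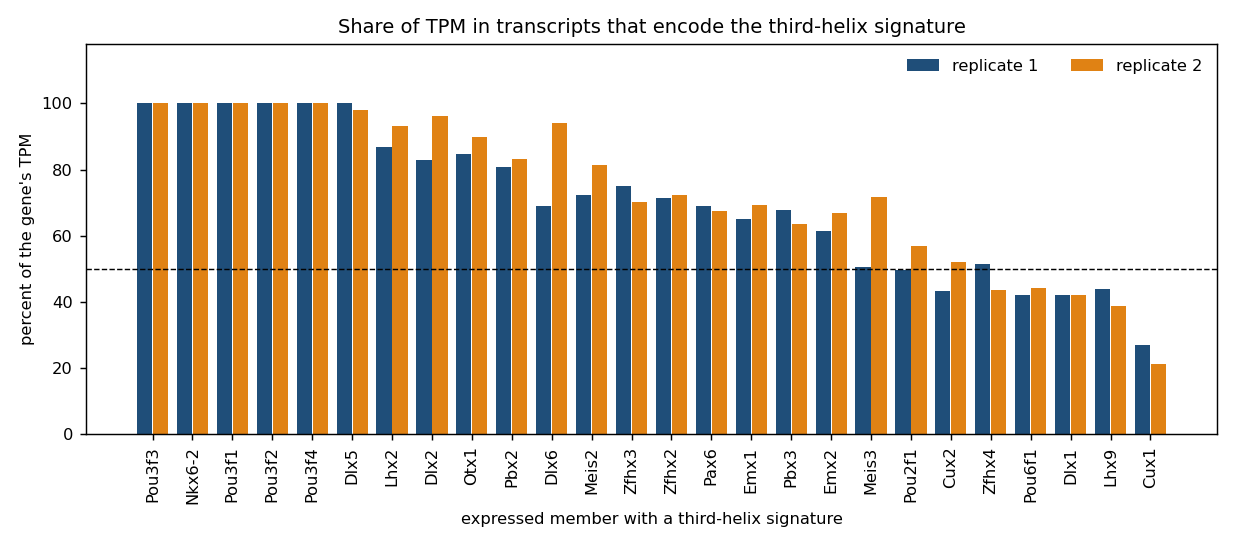
Percent of each gene's TPM in transcripts that encode the third-helix signature, for the 26 expressed members that have one, with a bar for each library. The dashed line is 50%. The bars of Cux1 are the lowest, at 27.0% and 21.3%, and those of the class III POU genes stand at 100%.

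Short transcripts led some members on few counts. Zeb2-229, a noncoding transcript of 584 bases, led Zeb2 with 21.6% and 24.01% of its TPM from 475 and 518 of the gene's 16584 and 16384 counts. In the second quantification it held 0.522%, and the coding Zeb2-202 led. Zeb2-202 held 17.7% and 19.2% in the main tables. Zfhx4-204, of 524 bases and without the signature, held 36.1% and 49.3% of Zfhx4 from 17.7 and 25.2 counts.

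The leader of Hopx also differed between quantifications. Hopx-202 held 85.2% and 86.4% of Hopx and under 0.01% in the second quantification, where Hopx-203 led, and each encodes 73 residues. The encoded proteins were not compared. Of the 35 expressed members 28 had the same leader in both libraries, 23 had the same leader in the second quantification and 21 had a leader over 50%. A coding transcript led in 33 of them.

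The choice of quantification moved levels as well as shares. The second quantification gave the 35 expressed members a median of 1.64 times their level in the main tables, from 1.30 times for Homez to 3.34 times for Pax6. Pax6 read 13.0 and 13.8 TPM there. Its leader there, Pax6-214, a coding transcript of 528 bases without the signature, held 24.8% and 23.5%, and it is listed at 0 in both libraries of the main tables. Noncoding processed transcripts of Pax6 held 5.24% and 11.8% in the main tables and 28.6% and 45.6% in the second quantification. Transcripts with the signature held 68.9% and 67.4% in the main tables and a mean of 25.0% in the second quantification. Meis1 passed 1 TPM there, at 1.60 and 1.43.

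The libraries were then compared with each other, as replicate 2 over replicate 1, for the 33 members with at least 200 expected counts over both. Each ratio has an exact 95% interval that covers counting error only, and a change of 1.5-fold was called. There is no test, since each side is 1 library. Zfhx2 (ENSMUSG00000040721.9, chromosome 14, 55060262 to 55092324) was the only member called, with 24.2 TPM in replicate 1 against 15.3 in replicate 2, a ratio of 0.633 (0.607 to 0.661). Of all 12960 genes with 200 counts 3.33% were called lower and 0.54% higher, so 1 of 33 lower and 0 of 33 higher is near that background. Zfhx2 fell short of the call with TMM or DESeq2 scaling, at log2 ratios of -0.56 and -0.54.

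Of the genes just outside the threshold, Zfhx3 had a ratio of 0.695 (0.616 to 0.785) and Pou2f1 one of 0.704 (0.647 to 0.765). Zeb2, the best counted, had 0.784 (0.767 to 0.801). The highest ratio was that of Tshz2, at 1.253 (1.15 to 1.36), on 882 and 1390 counts. The interval of Zfhx2 lay wholly below the threshold and that of Tshz2 wholly below 1.5.

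More members were lower in replicate 2 than higher, 26 against 7, and 64.9% of all genes with 200 counts were lower. The median log2 ratio of the members was -0.15 and that of all genes -0.07. This split depended on the scaling: it was 21 against 12 with TMM and with DESeq2, where 44.1% and 39.4% of all genes were lower. It was 20 against 13 in the second quantification and 25 against 8 with TPM rescaled over coding genes, with 56.8% and 55.1% of all genes lower. With spike-in scaling it was 31 against 2, but 87.8% of all genes were then lower and their median moved to -0.17. Relative to the median of all genes the members were at -0.08 under each of these except the second quantification, where they were at -0.04. Part of this agreement is fixed by arithmetic. TMM, DESeq2 and spike-in scaling each apply a single factor per library to the same counts, so the offset cannot differ between them. Nor can it differ between deposited and rescaled TPM. Tshz2 and Dlx2 were higher in replicate 2 under all of them. TMM, DESeq2 and spike-in scaling were applied to expected counts, without the scaling for length in TPM, so genes did not all shift alike from their TPM ratios. With spike-in scaling Dlx1, Nkx6-2, Tshz1 and Hopx fell on the lower side, and Otx1 did so with TMM, DESeq2 and spike-in scaling.

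Length moved with the ratio. Across coding genes the median log2 ratio was 0.00 for effective lengths under 2000 bases, -0.08 from 2000 to 4000 and -0.14 above 4000. The 5, 16 and 12 members in these classes had medians of -0.07, -0.14 and -0.22. Zfhx2, with an effective length of 8222 and 8288 bases, is among the longest, and the part of length in its ratio was not tested. Zfhx2os, antisense to Zfhx2 and sharing 3255 exonic bases with it, was also lower, at 5.44 and 3.30 TPM.

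**Figure D5:**
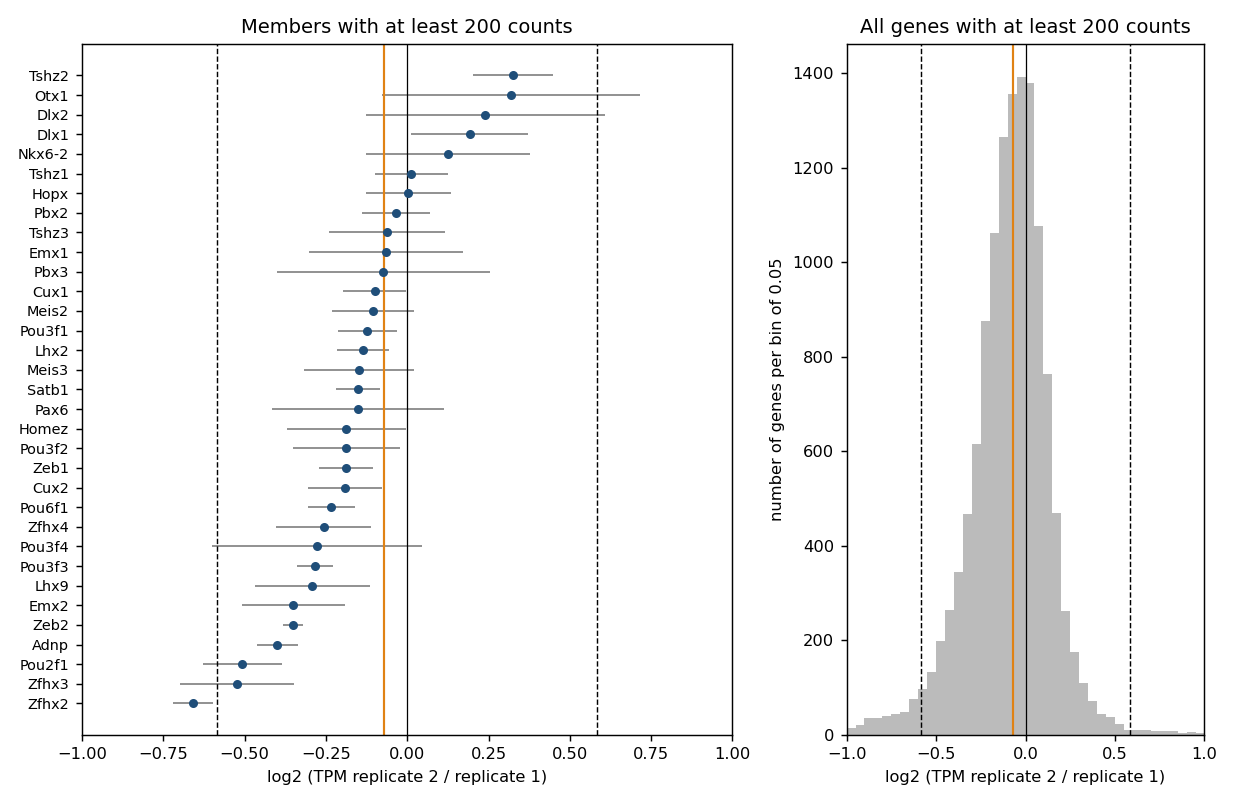
Log2 ratio of TPM in replicate 2 to replicate 1, for the 33 members with at least 200 counts (points, with exact 95% counting intervals as bars) and for all 12960 such genes (histogram). Dashed lines mark 1.5-fold and the orange line the median of all genes, -0.07. Zfhx2 is the only point past a dashed line.

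Shared exons limit a further ratio. Adnp, at 0.759 (0.726 to 0.792), shares 82.1% of its exonic bases with Gm20716 on the same strand. Gm20716 was higher in replicate 2, at 7.09 and 13.3 TPM. Both together were at 49.0 and 45.1 TPM, a ratio of 0.92, closer to 1 than that of either gene alone. How reads were divided between them was not tested. In all, 21 members share exonic bases with another gene, 19 of them with one on the opposite strand and 6 with one on the same strand.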

How the data were processed

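The deposited tables of each library are of 3 kinds. Gene and transcript tables in the RSEM column format hold the authors' expected counts (with a posterior SD), TPM and a transcript's percent of the TPM of its gene. A further transcript table, in kallisto's format, holds the authors' estimated counts and TPM and is called the second quantification. Per the labels the build is mm10, and per the deposited notes the annotation is GENCODE M21. The aligner, the counting program's version and the use of strand were not given in the sources used here.

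Levels are deposited TPM of 2 libraries. Ratios use TPM, a minimum of 200 expected counts over both and a 1.5-fold call, with exact Clopper-Pearson 95% intervals of the counts. Coding sequences came from the GENCODE M21 annotation and transcripts. With 1 group there is no test and no p-value. The members and lists were chosen with earlier results of these data known. All members are named. Of other lists, up to 8 expressed genes by mean TPM and those past 1.5-fold could be named, as could leading transcripts and those with 20% or more in both libraries. Hoxd1, Folr1, Gm20716, Inpp5a, Cux1-201, Zeb2-202, Hopx-203 and Pax6-214 were chosen after their values were seen.

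Results were recomputed with the second quantification, with TPM rescaled over coding genes, with edgeR 4.0.16 TMM, DESeq2 1.42.0 and spike-in scaling (0.376% and 0.429% of counts), with other thresholds, minimums and pseudocounts, and from single replicates. The call was checked on simulated counts. The software was Python 3.11.15 (with pandas 2.3.3, numpy 2.4.6, matplotlib 3.10.9, scipy 1.17.1) and R 4.3.3.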

Additional observations from a re-analysis of the deposited data

How the results depend on the processing

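The number of expressed members was 35 with either replicate left out, and 31 to 36 under the other alternatives. The number under 0.1 TPM was 1 with either replicate left out, 0 in the second quantification, with rescaling over coding genes, at 0.05 TPM and by a rule of fewer than 3 counts in each library, and 3 at 0.2 TPM. The summed level ran from 596 to 694 TPM with a replicate left out, and was 1065 ± 89.9 in the second quantification and 1509.5 ± 127 after rescaling over coding genes, which divides by a smaller total. Of members called lower in replicate 2, there were 0 with TMM and with DESeq2 and 3 with spike-in scaling (Zfhx2, Zfhx3 and Zfhx4). Of all 12960 genes with 200 counts, 1.86% were called lower with TMM, 1.74% with DESeq2 and 4.005% with spike-in scaling. Spike-in scaling put 87.8% of these genes lower by any amount, and whether its 3 calls are particular to the Zfhx genes was not tested. At a minimum of 20 counts 3 members were called lower, and 4 with no minimum. At the lower fold threshold tried there were 6, and 0 at 2-fold. Members called higher were 1 with no minimum and 1, Tshz2, at the lower threshold. Looser limits admit more calls by construction, and the cause of the other changes was not tested. Summing Adnp with Gm20716 and leaving out the zinc finger homeobox genes (median log2 ratio -0.14) were chosen after seeing the data. Leading transcript shares moved past the spread of the libraries for 24 of 35 members in the second quantification. No paired analysis was possible because there is 1 group. Members under 200 counts, such as Gbx2, Otx2 and Nkx2-1, are limited by depth.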

Other observations

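Among homeobox genes outside the members, Onecut2, a factor of liver and neurons, was lower in replicate 2, at 1.22 and 0.73 TPM on 474 and 352 counts. Shox2, a gene of limb, heart and thalamus that was picked out after its values were seen, had 21 and 2 counts. The Hox clusters and other homeobox genes that were nearly unread also had windows richer in CpG than coding genes at such levels: the 22 Hox genes with a window had a median of 13.5 CpG.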
